A study of Homo sapiens with 12 samples.

Results

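The transcriptional response to actinomycin D (Act D) was examined in the libraries labelled uL3Δ. The study uses this name for a sub-line of HCT 116p53-/- cells stably silenced for uL3, the protein of RPL3, while the sample labels give an RPL3 knockout (KO). All libraries of the cells so labelled were taken, 3 treated with 5 nM Act D for 24 h and 3 with vehicle, 6 of the 12 libraries of the series. The other 6 libraries came from HCT 116p53-/- cells, without the RPL3 change, under the same 2 treatments with 3 libraries each. HCT 116 is a human colorectal carcinoma line, and every group was labelled p53-/-, vehicle-treated controls included. The labels call the libraries of a group biological replicates without naming separate cultures, and nothing states whether the sub-line is 1 clone.

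Act D intercalates into DNA at GC-rich stretches. At low dose it blocks RNA polymerase I (Pol I), which transcribes the ribosomal RNA genes in the nucleolus, before it blocks the other polymerases. When ribosome production fails, free ribosomal proteins, uL3 among them, can act outside the ribosome, and in cells with p53 they stabilise it by binding MDM2. Cells without p53 lack that branch, so that their response has been followed through cell cycle inhibitors, apoptosis and autophagy.

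The 6 libraries held between 10087925 and 21138886 counts. Expression is given as CPM, a gene's counts scaled to a common library total after TMM normalisation, and 15692 genes passed the filter on low counts. RPL3 itself, the targeted gene, averaged 1242 ± 82.5 CPM without and 1223 ± 79.8 CPM after Act D (SD, n = 3 for each mean), beside 1138 ± 15.3 CPM in vehicle-treated HCT 116p53-/- cells, so that its transcripts were not lower in the libraries labelled uL3Δ, which are called by that label throughout. Of 15 epithelial and colon markers, 10 were under 1 CPM in the mean, CDH1 and CDX2 among them, while KRT8 and KRT18 were between 714.2 and 984.4 CPM and EPCAM between 32.9 and 40.9 CPM. Their summed level was 1596 to 1787 CPM with vehicle and 1740 to 1985 CPM with Act D, that of 12 mesenchymal markers (VIM, FN1 and others) was 2628 to 2696 and 2637 to 2957 CPM, that of 7 leukocyte and blood markers 7.39 to 11.2 and 11.3 to 12.4 CPM, and that of 5 endothelial markers 1.35 to 1.501 and 1.26 to 2.09 CPM. The filter on low counts was passed by 8 epithelial and colon, 9 mesenchymal, 2 leukocyte and blood and 2 endothelial markers. None of these passed the test with Act D, and the other markers were not tested. In vehicle-treated HCT 116p53-/- cells CDH1 was at 66.8 CPM, CDX2 at 14.8 CPM and VIM at 22.0 CPM, where the libraries labelled uL3Δ had 2184 to 2491 CPM of VIM, so that the labels differed in far more than RPL3, and the part of this in any difference between their responses was not tested. Vehicle replicate 1 stood apart from the other vehicle-treated libraries on the first principal component, at -43.9 against -16.2 and -14.8, and several results are also given without it. On the second component (23% of the variance) Act D replicates 2 and 3 lay far apart, at 33.1 and -42.4. The share of counts from mitochondrial genes was 4.57 to 6.28% with vehicle and 7.10 to 9.83% with Act D, and 3 chromosome 21 loci with identical values took between 1.13 and 5.58% of the counts each.

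Of the 15692 genes, 1869 (11.9%) passed the test, which here means a Benjamini-Hochberg adjusted p below 0.05 in edgeR's quasi-likelihood fit. With Act D 551 genes (3.51%) rose and 1318 (8.4%) fell. These shares depended on the level of the genes. Of 5 equal groups by mean CPM, 0.637% fell in the lowest and 15.2% in the highest, and 1.63 and 4.17% rose. The gene lists below were not matched for level. The groups were fully separated, with no overlap of their libraries, for 27.6% of all genes, higher with Act D for 12.8% and lower for 14.8%. Of the genes past the threshold, 1834 were among these. Most changes were small. The median size of the log2 fold change was 0.51 among genes that rose and 0.53 among those that fell, and 87 and 115 genes respectively passed a 2-fold change. The division depended on the scaling: library size alone gave 227 genes up and 1858 down, with the median log2 fold change of all genes at -0.07, and upper-quartile scaling gave 944 and 1012, with the median at 0.09, where TMM gave 0.03. Without vehicle replicate 1 the counts were 333 and 1012.

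Of the 12 largest decreases among genes with 5 CPM or more in a group and no overlap between the groups, 5 belonged to long non-coding RNA loci without a name, each of which contains, on the same strand, the gene of a small nuclear RNA (snRNA), one of the short RNAs that recognise splice sites in the spliceosome. Small nuclear RNA genes of this kind are transcribed by RNA polymerase II and end at a sequence a short way past the RNA, where the Integrator complex cleaves the transcript. The stretches around the 3′ ends of these snRNA genes are shown because these loci were among the leading decreases, 50 bases of the snRNA in capitals followed by 100 bases after it in lower case, read from the hg38 reference.
ENSG00000270022 (RNU12, chr22:42615344-42615493, plus strand): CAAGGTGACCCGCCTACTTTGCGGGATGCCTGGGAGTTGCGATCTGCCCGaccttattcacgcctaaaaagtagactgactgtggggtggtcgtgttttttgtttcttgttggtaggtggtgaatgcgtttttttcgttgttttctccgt
ENSG00000287190 (RNVU1-6, chr1:146051981-146052130, minus strand): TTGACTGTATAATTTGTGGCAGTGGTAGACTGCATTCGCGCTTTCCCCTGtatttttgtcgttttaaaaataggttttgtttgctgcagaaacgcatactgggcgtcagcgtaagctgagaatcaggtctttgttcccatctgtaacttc
ENSG00000276216 (RNVU1-14, chr1:145281230-145281379, plus strand): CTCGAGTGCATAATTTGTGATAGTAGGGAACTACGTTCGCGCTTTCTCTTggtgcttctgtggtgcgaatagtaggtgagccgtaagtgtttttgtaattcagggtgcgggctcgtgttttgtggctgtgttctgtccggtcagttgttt
ENSG00000287979 (RNVU1-19, chr1:120850719-120850868, minus strand): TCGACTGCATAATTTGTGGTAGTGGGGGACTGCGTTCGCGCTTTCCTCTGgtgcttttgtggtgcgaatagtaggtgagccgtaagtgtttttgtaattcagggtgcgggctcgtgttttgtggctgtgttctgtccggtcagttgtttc
ENSG00000285646 (RNU5E-1, chr1:11908222-11908371, plus strand): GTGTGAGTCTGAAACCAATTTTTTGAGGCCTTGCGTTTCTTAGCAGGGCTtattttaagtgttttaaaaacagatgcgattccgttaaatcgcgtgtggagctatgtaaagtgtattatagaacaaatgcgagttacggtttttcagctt
The first holds the end of U12, a snRNA of the minor spliceosome, the next 3 are variant copies of U1, and the last is a U5 gene. After the annotated ends, RNVU1-14 and RNVU1-19 share an unbroken run of 92 bases, and reads from that run alone cannot be assigned to either locus.

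ENSG00000270022, a locus of 1 exon at chr22:42615244-42615907 that begins at the first base of RNU12, was at 15.7, 12.3 and 12.1 CPM with vehicle and at 1.75, 2.51 and 3.02 CPM with Act D. The groups were far apart, 5.66-fold lower with Act D (log2 fold change -2.50, SE 0.25, adjusted p = 7.27e-06). ENSG00000287190, at RNVU1-6, went from 7.39, 5.50 and 4.05 CPM to 0.800, 0.914 and 1.97 CPM (log2 fold change -2.24, adjusted p = 0.000269). ENSG00000276216, at RNVU1-14, went from 10.7, 7.66 and 8.71 CPM to 2.40, 2.06 and 3.02 CPM (log2 fold change -1.85, adjusted p = 2.01e-05). In each of them the highest treated library lay below the lowest untreated one, which the selection of these loci required. ENSG00000287979, at RNVU1-19, had the tightest replicates, with 19.4, 20.8 and 21.7 CPM against 6.18, 6.85 and 7.65 CPM (log2 fold change -1.59, SE 0.13, adjusted p = 1.97e-06). ENSG00000285646, at RNU5E-1, fell from 7.15, 7.56 and 6.41 CPM to 1.82, 2.40 and 3.36 CPM (log2 fold change -1.52, adjusted p = 0.000164).

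Of the snRNA genes inside these loci RNVU1-19 and RNU5E-1 had no reads of their own in any of the 6 libraries, RNVU1-14 had at most 3.85 expected counts and RNU12 at most 7.48. RNVU1-6 had 34.8, 45.6 and 15.6 expected counts with vehicle and 2.55, 0.78 and 2.63 with Act D, and was itself called (log2 fold change -3.14, adjusted p = 0.000557). The table does not show whether the reads that RSEM assigned to the longer loci lay within the snRNA or beyond its end. A search for other genes of this kind, made after these values were seen, found 12 tested genes that contain a U1, U2, U4, U5, U7, U11 or U12 gene on their own strand. Of these 7 fell and none rose, where 8.4% of all genes fell and 3.51% rose. The 7 include the 5 unnamed loci that prompted the search, so that the count is no separate support. Beside the 5 unnamed loci those that fell were PVT1 (log2 fold change -0.75) and ZFAND3 (-0.57), long genes in which the snRNA is a small part. LINC01138 (0.28) and TEX14 (1.01) were higher in every treated library than in any untreated one but did not pass the test. In HCT 116p53-/- cells the 5 unnamed loci had log2 fold changes of -0.03 at RNU12, 0.01 at RNVU1-6, -0.56 at RNVU1-14, -0.05 at RNVU1-19 and 0.00 at RNU5E-1. None of these passed the test, where mean vehicle-treated levels were 9.40, 2.45, 5.39, 9.61 and 5.56 CPM at ENSG00000270022, ENSG00000287190, ENSG00000276216, ENSG00000287979 and ENSG00000285646. The difference between the responses passed the interaction test at all 5 (adjusted p = 9.43e-05 to 0.012), where 6.53% of all genes passed. The 5 loci were picked for their decrease in the libraries labelled uL3Δ, which is part of that difference. Their share therefore cannot be set against that of all genes.

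**Figure D1:**
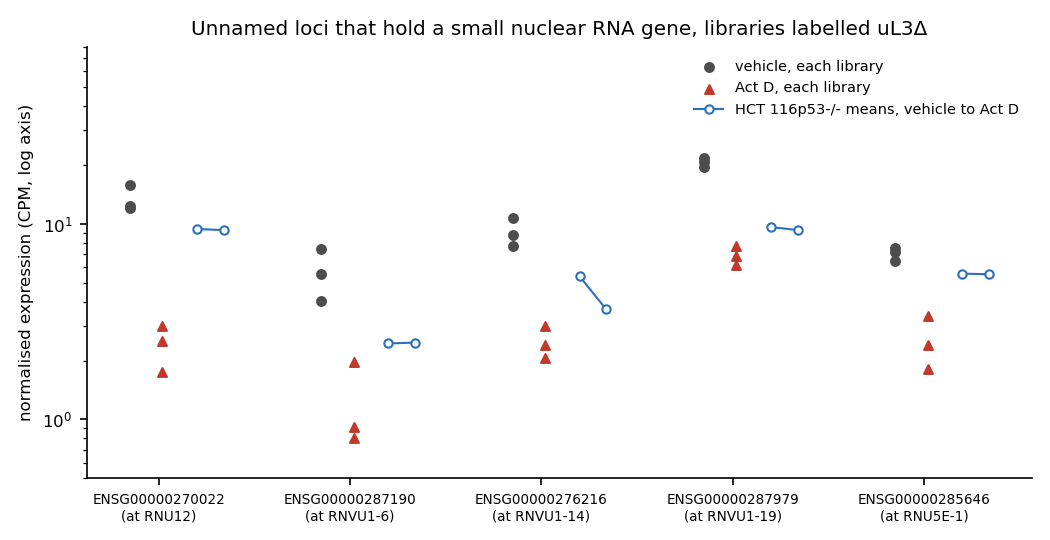
Normalised expression (CPM, log axis) of the 5 unnamed loci that hold a small nuclear RNA gene. Circles are the 3 vehicle-treated and triangles the 3 Act D-treated libraries labelled uL3Δ; joined open circles are the group means of HCT 116p53-/- cells. The loci were picked among genes whose groups did not overlap, so that all 3 treated libraries labelled uL3Δ lie below all 3 untreated ones.

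Among genes annotated as snRNA themselves, 33 were tested, many of them copies with identical values (16 distinct sets of values). None rose and 4 (12.1%) fell, a share not far from the 8.4% of all genes. All 4 were U1 variants at low levels. RNVU1-15, at 2.97, 2.40 and 2.16 CPM with vehicle, was at 0, 0.228 and 0.116 CPM with Act D (adjusted p = 0.000124), and RNVU1-6, RNVU1-30 and RNVU1-27 also fell. The median log2 fold change of the 33 was -0.74, beside 0.03 over all genes. Of 39 small nucleolar RNAs (snoRNAs), which guide the cleavage and modification of ribosomal RNA, 5 fell and none rose (median -0.46). The 5 are 12.8% of them, again not far from the 8.4% of all genes. SNORD3A, the U3 snoRNA needed for the first cleavages of the ribosomal RNA precursor, was at 780.0, 1947 and 962.6 CPM with vehicle and at 681.6, 361.9 and 665.5 CPM with Act D. The groups did not overlap but vehicle replicate 2 was far above the other untreated libraries, and the call (log2 fold change -1.11, adjusted p = 0.018) was lost without that library or without Act D replicate 2. Its copies SNORD3B-1 and SNORD3B-2 fell by 0.90 and 0.89 on the log2 scale (adjusted p = 0.000397 and 0.00036), with SNORA57 (-0.85) and SNORA48 (-0.71). SNORD3B-1 and SNORD3B-2 changed by 0.27 and 0.15 in HCT 116p53-/- cells, and the difference passed the interaction test (adjusted p = 0.0126 and 0.0164). The U3 copies share reads, so that their counts are less certain.

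At 5 CPM or more the named genes with the largest decreases were TIGD5, SRGAP1, TRAF3, CHAC1, TRIO and SNX21. SRGAP1, which switches off Cdc42 and Rac1 downstream of Slit and Robo, was at 39.8, 27.4 and 25.8 CPM with vehicle and at 7.93, 9.82 and 8.46 CPM with Act D, 3.55-fold lower (log2 fold change -1.83, SE 0.18, adjusted p = 6.3e-06). TRAF3, an adaptor of TNF receptors that restrains non-canonical NF-κB signalling, went from 108.4, 73.5 and 76.0 CPM to 27.4, 26.5 and 32.7 CPM (log2 fold change -1.58, SE 0.13, adjusted p = 1.97e-06). TRIO, an exchange factor for Rac1 and RhoA, went from 371.5, 233.3 and 273.9 CPM to 108.0, 105.5 and 93.8 CPM (log2 fold change -1.51, SE 0.13). In SRGAP1, TRAF3 and TRIO vehicle replicate 1 was the highest of all 6 libraries, and the treated libraries lay close together. TIGD5, a single-exon gene derived from a transposase, fell by 1.94 on the log2 scale, again with vehicle replicate 1 highest, at 19.8 CPM against 10.5 and 9.52 CPM. SNX21, a sorting nexin, fell by 1.37 from a low level. For ENSG00000255639, a read-through locus joining GALNT8 and NDUFA9 (log2 fold change -1.74), RSEM's posterior SD reached 82.0% of the count in 1 library, so that its value is uncertain.

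Genes above 100 CPM that fell most, after TRIO, were TXNRD1, FRMD6, KCTD5, DDX17, ANKRD11, SNORD3A and LARP4B. TXNRD1, the cytosolic thioredoxin reductase, was at 1161, 985.0 and 950.2 CPM with vehicle and at 382.5, 490.6 and 459.3 CPM with Act D (log2 fold change -1.22, SE 0.11, adjusted p = 2.3e-06). FRMD6, an upstream regulator of Hippo signalling, was at 123.0, 119.3 and 108.5 CPM and at 47.6, 56.3 and 47.3 CPM (log2 fold change -1.22, SE 0.10). It changed by -0.09 in HCT 116p53-/- cells, and the difference passed the interaction test (adjusted p = 0.000642). KCTD5, an adaptor of the CUL3 ubiquitin ligase, fell by 1.17, the RNA helicase DDX17 by 1.16, the chromatin regulator ANKRD11 by 1.15 and LARP4B, an RNA-binding protein, by 1.11 on the log2 scale. These last 4 fell by 1.56, 0.97, 1.22 and 1.06 in HCT 116p53-/- cells.

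At 5 CPM or more in a group, and among genes whose groups did not overlap, the increases were led by genes at a few CPM. ZNF425, a KRAB zinc finger gene, was at 1.21, 1.70 and 1.49 CPM with vehicle and at 6.62, 6.85 and 7.42 CPM with Act D, 4.66-fold higher (log2 fold change 2.22, SE 0.22, adjusted p = 6.3e-06). It rose by 0.77 in HCT 116p53-/- cells, with a difference past the interaction test (adjusted p = 0.00752). THAP10 and THAP2, which encode zinc finger proteins of the THAP family, rose by 1.55 and 1.26 on the log2 scale, and PYGM, the muscle form of glycogen phosphorylase, by 1.42. CDKN2B, which encodes the CDK4 and CDK6 inhibitor p15, was at 5.38, 5.80 and 6.08 CPM with vehicle and at 13.8, 14.4 and 14.6 CPM with Act D (log2 fold change 1.30, SE 0.16, adjusted p = 4.04e-05), with replicates of either group within 1 CPM of each other. It rose by 1.38 in HCT 116p53-/- cells. TOB1 and TENT5C, which act in deadenylation and polyadenylation of mRNA and restrain proliferation, rose by 1.05 and 1.11, and in HCT 116p53-/- cells by 1.36 and 1.66. FES, a non-receptor tyrosine kinase, was at 2.33, 2.60 and 1.89 CPM and at 4.80, 4.68 and 6.15 CPM (log2 fold change 1.17, adjusted p = 0.000661) and changed by -0.04 in HCT 116p53-/- cells (interaction adjusted p = 0.00781). Among the 12 largest increases the pseudogene BZW1P2 and the read-through locus ENSG00000256500, had a posterior SD of up to 72.4% of the count in BZW1P2 and 70.03% in ENSG00000256500, and DESeq2 did not call either. ZKSCAN1, a KRAB and SCAN zinc finger gene, was the one nuclear gene above 100 CPM among the 8 largest increases at that level, with a log2 fold change of 0.92 (SE 0.10, adjusted p = 1.73e-05).

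**Figure D2:**
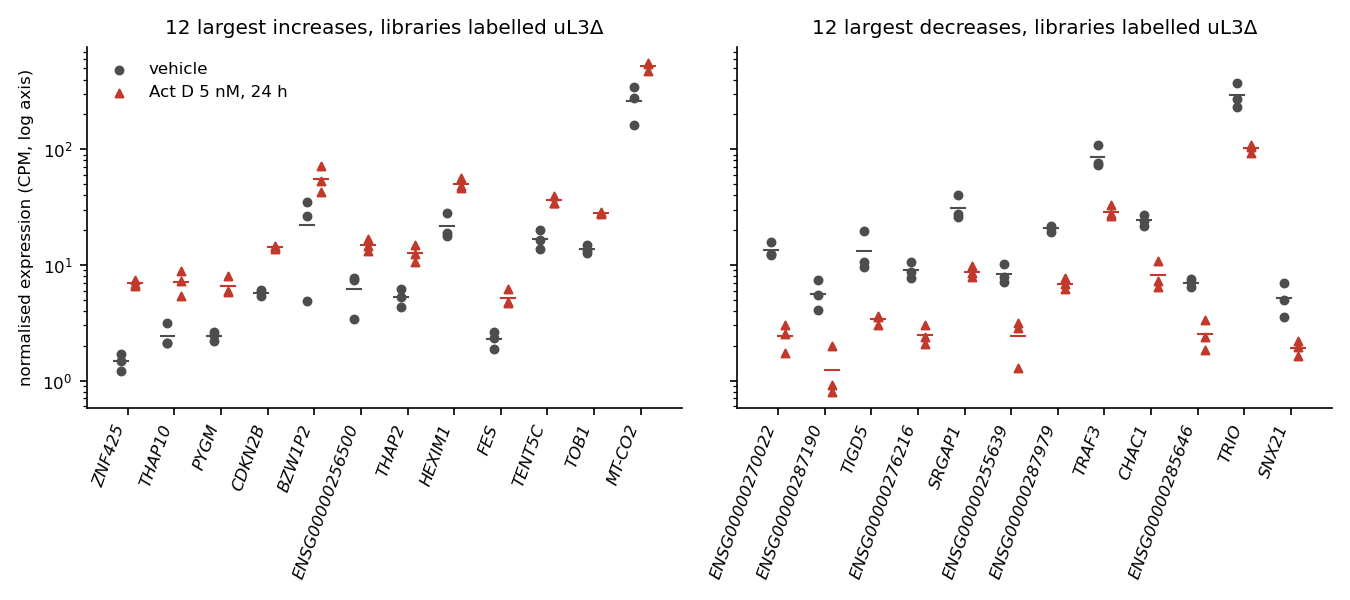
Normalised expression (CPM, log axis) in each library labelled uL3Δ of the 12 genes with the largest increase and the 12 with the largest decrease among genes with adjusted p under 0.05, at least 5 CPM in one group and groups that do not overlap. Circles are vehicle, triangles Act D, and lines the group means; ZNF425 leads the increases and ENSG00000270022 the decreases.

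The mitochondrial genome accounted for the other 7 of those 8 increases. It encodes 13 subunits of the respiratory chain and ATP synthase and 2 ribosomal RNAs, all transcribed by a polymerase of their own. All 13 protein-coding genes rose, with groups that did not overlap (median log2 fold change 0.78, range 0.62 to 1.01). MT-CO2, a subunit of cytochrome c oxidase, was at 161.5, 275.8 and 346.8 CPM with vehicle and at 551.5, 478.6 and 553.2 CPM with Act D (log2 fold change 1.01, SE 0.17, adjusted p = 0.000704). MT-ND2, of complex I, rose by 0.93 on the log2 scale, from 148.8 to 283.9 CPM in the mean. Vehicle replicate 1 was the lowest library for every one of them except MT-ATP8, as in MT-CO1 with 539.7 CPM beside 812.4 and 1100 CPM. Without it 10 of the 13 were called, and 11 were called with library size alone. MT-RNR1, the small ribosomal RNA of mitochondria, also rose (0.76, adjusted p = 0.0125). The median of the 13 in HCT 116p53-/- cells was 0.46, 3 were called, and none differed between the labels by the interaction test. Of 78 tested genes for mitochondrial ribosomal proteins, which are encoded in the nucleus, none rose and 2 fell.

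In the amino acid response 16 of 33 tested genes (48.5%) fell and none rose. This programme is driven by the transcription factor ATF4, which is translated when eIF2α is phosphorylated, and covers amino acid transporters, serine synthesis and aminoacyl-tRNA synthetases. The median log2 fold change of the 33 was -0.37 beside 0.03 over all genes, and 14 fell without vehicle replicate 1. Over the scalings and libraries left out the number was between 13 and 20. CHAC1, which degrades glutathione, led them at 24.1, 26.9 and 21.9 CPM with vehicle and 10.8, 7.20 and 6.49 CPM with Act D (log2 fold change -1.55, SE 0.19, adjusted p = 4.04e-05). The transporter genes were next: SLC7A1, for arginine and lysine, fell by 0.90, SLC7A11, the cystine transporter, by 0.81, SLC6A9 and SLC7A5, for glycine and for leucine, by 0.72 each, SLC38A2, for glutamine and other neutral amino acids, by 0.51, and SLC3A2, the partner chain of SLC7A5 and SLC7A11, by 0.49 on the log2 scale. SLC7A11 was at 144.8, 125.9 and 132.1 CPM with vehicle and at 62.9, 93.3 and 74.1 CPM with Act D, without overlap (adjusted p = 0.000217). ATF4 itself went from 566.0, 536.3 and 465.3 CPM to 386.4, 409.2 and 392.1 CPM (log2 fold change -0.40, adjusted p = 0.00423). In the serine pathway PSPH and PSAT1 fell by 0.79 and 0.34, and PHGDH did not pass the test. TRIB3, a feedback inhibitor of ATF4, and the partner factor CEBPB fell by 0.60 and 0.69. ASNS, asparagine synthetase (log2 fold change -0.25, adjusted p = 0.0885), and DDIT3, which encodes CHOP (-0.24, adjusted p = 0.363), did not pass. In HCT 116p53-/- cells 4 of the 33 rose and 6 fell. The responses differed by the interaction test for 4 of the 33, SLC7A11, CEBPB, SESN2 and ASNS, where 6.53% of all genes passed. Of 26 genes of the endoplasmic reticulum stress response 1 (MANF, 0.30) rose and none fell.

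The C/EBP-ATF response element is the sequence that ATF4 binds in such genes, and it was searched as TGATGNAA on both strands of the 300 bases from 250 before to 50 after the start of each gene in RefSeq's table for GRCh38.p14, which held 11319 of the tested genes. Of the 28 members with a promoter 5 held it (17.9%), against 1.70% of all tested genes with one and 3.67% of the 27305 promoters of the table. They include 3 of the 14 that fell, shown here for 2 of these with the element in capitals.
CHAC1 (chr15:40953221-40953520, plus strand): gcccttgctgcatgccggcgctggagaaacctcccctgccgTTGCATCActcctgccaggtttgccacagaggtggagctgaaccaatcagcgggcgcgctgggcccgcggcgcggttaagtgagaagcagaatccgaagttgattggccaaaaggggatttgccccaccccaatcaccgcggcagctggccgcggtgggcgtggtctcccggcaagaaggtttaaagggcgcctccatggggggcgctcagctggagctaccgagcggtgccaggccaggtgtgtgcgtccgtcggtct
SLC7A1 (chr13:29595639-29595938, minus strand): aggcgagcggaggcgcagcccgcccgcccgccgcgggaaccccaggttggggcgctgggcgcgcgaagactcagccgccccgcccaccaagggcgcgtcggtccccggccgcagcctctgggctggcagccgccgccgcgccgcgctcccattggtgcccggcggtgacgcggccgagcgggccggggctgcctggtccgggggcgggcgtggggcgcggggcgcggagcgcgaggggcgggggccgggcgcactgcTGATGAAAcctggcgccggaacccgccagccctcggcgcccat
In CHAC1 the element lies 209 bases before the start site, on the opposite strand, and in SLC7A1 just after it. The median log2 fold change was -0.49 for the 5 members with the element and -0.37 for those without. The match describes these letters and is not a measured site. The search was added after the data were seen. The list is of ATF4 and its targets, so that the share holding its element is no separate support.

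**Figure D3:**
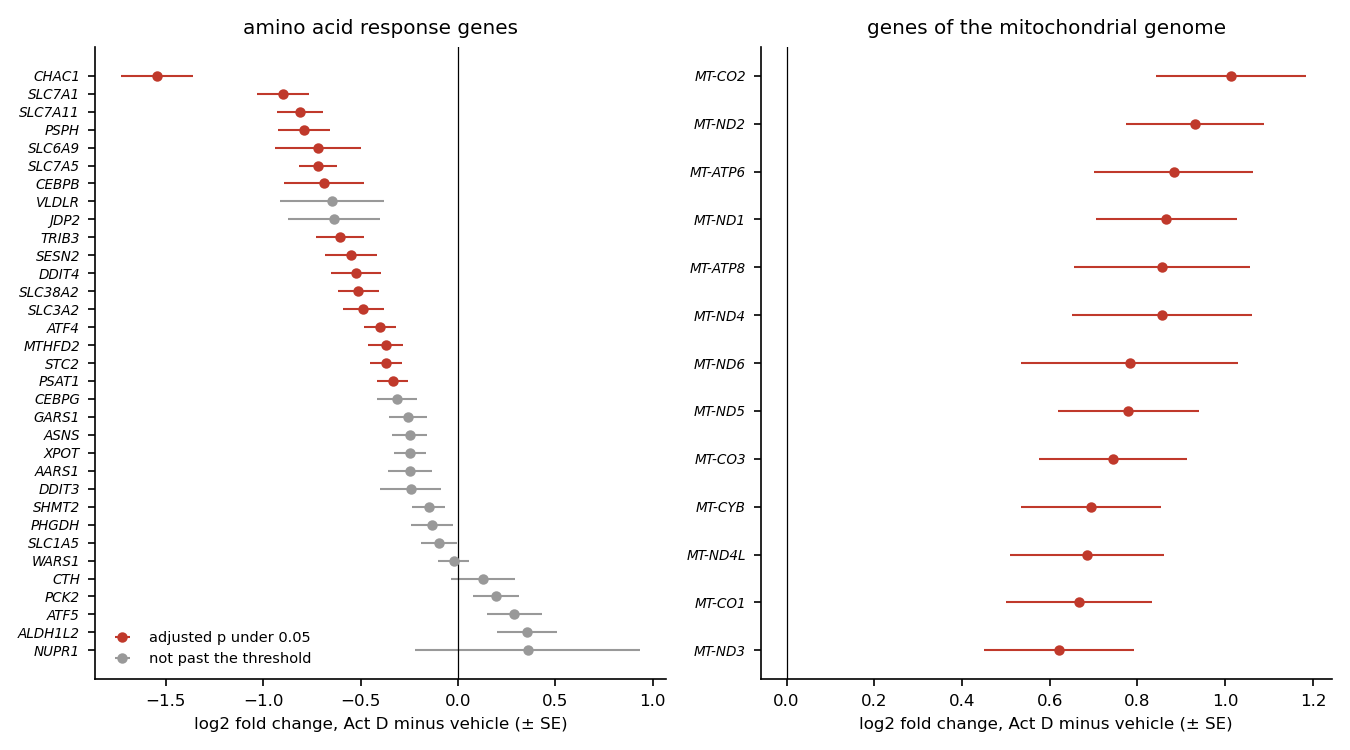
Log2 fold change (Act D minus vehicle, ± SE, from edgeR's quasi-likelihood fit) of the 33 amino acid response genes and of the 13 protein-coding genes of the mitochondrial genome in the libraries labelled uL3Δ. Red points passed the test, 16 of 33 on the negative side and 13 of 13 on the positive side of 0.

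Of 81 tested factors that process ribosomal RNA and assemble the subunits, 25 (30.9%) fell and 3 rose (median log2 fold change -0.19). Without vehicle replicate 1, 18 fell and 1 rose, and the number that fell was between 15, without Act D replicate 1, and 35 over the alternatives. RRP1, a 60S assembly factor, was at 96.8, 71.8 and 60.6 CPM with vehicle and at 40.2, 36.7 and 39.5 CPM with Act D (log2 fold change -0.97, SE 0.13, adjusted p = 9.82e-05). PPAN, also of the 60S pathway, went from 47.1, 35.9 and 32.8 CPM to 19.1, 19.6 and 21.8 CPM (-0.93, adjusted p = 0.000107). URB2 fell by 0.65 and MDN1, the large ATPase that strips factors from the 60S precursor, by 0.58. The 40S side was represented by RRP12, EMG1, WDR43, UTP6, UTP15 and UTP18, which fell by between 0.37 and 0.49. NCL and NOLC1, abundant nucleolar proteins, rose by 0.28 and 0.32 and the kinase RIOK2 by 0.45. Of 15 alternatives, 9 lost the call of NCL, 8 that of NOLC1 and 5 that of RIOK2, library size alone among them each time. No assembly factor was up without Act D replicate 2 or without Act D replicate 3. POLR1A and POLR1B, the 2 largest subunits of Pol I, fell by 0.67 and 0.44. They were the 2 called of 15 genes of Pol I and its factors (13.3%, beside 11.9% of all genes). POLR1B was at 76.4, 71.7 and 75.3 CPM with vehicle and at 51.6, 56.2 and 56.8 CPM with Act D (adjusted p = 0.000815). It changed by 0.11 in HCT 116p53-/- cells, and that difference passed the interaction test (adjusted p = 0.00414). None of 79 cytosolic ribosomal protein genes was called, with a median log2 fold change of 0.02 that was -0.08 with library size alone and 0.09 with the upper quartile, and without vehicle replicate 1 was -0.03. Of 21 snoRNA host genes 3 (14.3%, beside 8.4% of all genes) fell, SNHG15 (-0.67), SNHG7 and SNHG12. The number down was 5 without vehicle replicate 1 and 1 without Act D replicate 3. In HCT 116p53-/- cells 6 assembly factors rose and 9 fell (median 0.01). The responses of 8 of the 81 differed between the labels by the interaction test, where 6.53% of all genes passed. PPAN, URB2, WDR43, BYSL, NIP7, DDX21 and NOP16 had the lower log2 fold change in the libraries labelled uL3Δ and DDX10 the higher.

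MYC binds the E-box CACGTG in promoters of such factors. The E-box, which reads the same on both strands, was found in 35.8% of the 67 assembly factors with a promoter in the table, against 9.87% of all tested genes with one and 7.43% of all promoters. It was present in 8 of the 20 that fell (40.0%) and in 16 of the 47 that did not (34.04%). Those 2 shares lay close together. The promoters of MDN1 and NAT10, which fell, are shown with the E-box in capitals.
MDN1 (chr6:89819745-89820044, minus strand): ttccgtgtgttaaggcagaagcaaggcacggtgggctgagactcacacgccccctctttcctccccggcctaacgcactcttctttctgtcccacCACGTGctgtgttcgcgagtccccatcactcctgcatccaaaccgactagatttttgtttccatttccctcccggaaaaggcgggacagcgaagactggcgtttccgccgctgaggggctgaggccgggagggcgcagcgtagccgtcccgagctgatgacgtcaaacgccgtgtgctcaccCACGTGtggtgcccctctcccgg
NAT10 (chr11:34105379-34105678, plus strand): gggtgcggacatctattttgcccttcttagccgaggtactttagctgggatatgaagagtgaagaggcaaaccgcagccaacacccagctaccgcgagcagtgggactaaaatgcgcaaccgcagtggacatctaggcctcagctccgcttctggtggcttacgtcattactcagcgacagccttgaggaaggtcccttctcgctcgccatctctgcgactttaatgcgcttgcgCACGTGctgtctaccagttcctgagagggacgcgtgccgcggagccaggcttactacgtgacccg
MDN1 carries the E-box at 2 places and NAT10, the acetyltransferase of 18S ribosomal RNA (log2 fold change -0.46), 15 bases before its start. MYC had means of 15.3 CPM without and 16.3 CPM after Act D (adjusted p = 0.573). Of 12 genes of the MYC and MAX network MXD3 rose (0.61) and MGA fell (-0.55).

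Of 27 tested targets of NRF2, the factor that responds to oxidative and electrophilic stress, 8 (29.6%) fell and none rose (median log2 fold change -0.21). Beside TXNRD1 these were GCLC and GCLM, the subunits of the enzyme that limits glutathione synthesis, SLC7A11, SRXN1, the drug exporter ABCC1, the partner factor MAFG and KEAP1, which holds NRF2 for degradation. GCLC was at 142.7, 110.6 and 118.6 CPM with vehicle and at 63.5, 71.3 and 70.8 CPM with Act D (log2 fold change -0.86, SE 0.10, adjusted p = 4.18e-05). NQO1 and HMOX1, defining targets, did not pass (0.16, adjusted p = 0.302, and -0.20, adjusted p = 0.358). In HCT 116p53-/- cells 4 of the 27 rose and 3 fell. Between the labels 7 of the 27 differed by the interaction test, where 6.53% of all genes passed. These were TXNRD1, GCLC, SLC7A11, KEAP1, SRXN1, GCLM and MAFG, each with the lower log2 fold change in the libraries labelled uL3Δ.

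Genes known as p53 targets went both ways. Of 32 tested, 6 rose and 4 fell (median log2 fold change 0.12). XPC, a sensor of DNA damage, rose by 0.71 (SE 0.10, adjusted p = 9.87e-05), with TIGAR (0.60), the BH3-only gene PMAIP1 (0.56), PLK2 (0.48), POLH (0.42) and RRM2B (0.31). MDM2, the ubiquitin ligase of p53, was at 115.7, 99.3 and 105.5 CPM with vehicle and at 67.6, 83.2 and 68.0 CPM with Act D (log2 fold change -0.55, SE 0.10, adjusted p = 0.00093), and AEN, SESN2 and TRIAP1 fell by 0.57, 0.55 and 0.52. CDKN1A, which encodes p21, was at 72.3, 76.6 and 73.9 CPM with vehicle and at 86.8, 82.2 and 90.2 CPM with Act D. The groups did not overlap, and the change of 0.22 (SE 0.08) had an adjusted p of 0.0881. In the libraries labelled HCT 116p53-/-, 27 of the 32 rose and none fell, CDKN1A by 1.77 and MDM2 by 0.92. The response differed between the labels for 17 of the 32, against 6.53% of all genes.

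In the G1 phase of the cell cycle, 27 tested cyclins, kinases, inhibitors and E2F factors gave 3 increases and 7 decreases. CDK6 fell from 425.9, 377.5 and 408.6 CPM to 219.5, 244.8 and 214.5 CPM (log2 fold change -0.84, SE 0.09, adjusted p = 1.49e-05) and CCND1, which encodes its partner cyclin D1, by 0.62. The p107 gene RBL1 fell by 0.82, and E2F6, E2F4, TFDP1 and E2F7 by between 0.31 and 0.61. CDKN2B, CCNE1 (0.42) and TFDP2 (0.26) rose, and 1 of the 27 was up without vehicle replicate 1 or 3 or Act D replicate 1 or 3. Of 46 DNA replication genes 7 (15.2%, beside 8.4% of all genes) fell and none rose. RFC3 fell by 0.53, CDT1 by 0.49 and CDC6 by 0.34. The number down was 1 with upper-quartile scaling, 1 without vehicle replicate 1 and 2 without Act D replicate 1 or 2. Of 48 genes of G2 and mitosis KIF20A, HMMR and NUF2 rose by between 0.32 and 0.42 and KIF20B fell by 0.32, whereas library size alone gave 0 up and 7 down. Of these 48, 1 was up without vehicle replicate 1 or 3 or Act D replicate 2 or 3, and 0 without Act D replicate 1. Of 49 histone genes 9 (18.4%) fell and none rose (median log2 fold change -0.18), and 7 of these encode histone H4. H4C2 was at 55.0, 42.0 and 33.9 CPM with vehicle and at 23.3, 15.1 and 25.7 CPM with Act D (log2 fold change -1.02, SE 0.17, adjusted p = 0.000551). Histone genes are near copies of each other, so that their counts are less certain. Without vehicle replicate 1, 6 of them fell, and 5 without vehicle replicate 2 or Act D replicate 2.

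In TGF-β signalling 8 of 39 tested genes fell and 3 rose. PMEPA1, a feedback inhibitor, went from 82.7, 72.2 and 77.0 CPM to 30.8, 32.6 and 38.7 CPM (log2 fold change -1.19, SE 0.13, adjusted p = 1.64e-05) and changed by 0.16 in HCT 116p53-/- cells (interaction adjusted p = 0.0195). SMURF1, a ubiquitin ligase for SMADs and receptors, went from 96.9, 86.2 and 82.2 CPM to 43.6, 41.1 and 46.7 CPM (-1.01, adjusted p = 1.97e-06), and it too differed between the labels (adjusted p = 0.00113). The receptors TGFBR2, BMPR2 and BMPR1A fell by 0.82, 0.73 and 0.59 and SMAD3 by 0.76, whereas ID2, an inhibitor of differentiation factors, rose by 0.96, and TGIF1 and TGFBR3 by 0.59 and 0.47. In NF-κB signalling 7 of 31 fell and none rose: with TRAF3 these were TRAF2 (-1.33), NFKB1 (-0.71), the kinase gene CHUK (-0.51), and the induced genes TNFAIP3, LIF and TNIP1. Upper-quartile scaling gave 3 of the 31 up and 6 down. Of 22 feedback genes of Ras and MAPK signalling 6 fell, CCND1, SPRED2, SPRED1, EPHA4, ERRFI1 and DUSP4, by between 0.42 and 0.62, and HBEGF, a ligand of the EGF receptor, rose by 0.64. In Wnt signalling 5 of 39 (12.8%) fell, a share not far from the 8.4% of all genes. These were the negative regulators ZNRF3, AXIN1 and GSK3B, by 1.00, 0.99 and 0.72, and LRP6 and DKK1, by 0.42 and 0.37. BCL9 rose by 0.47. Of 26 immediate early genes FOSB (0.70), CCN2 (0.63) and NR4A3 rose and FOSL1 (-0.52), FOSL2 and KLF6 fell, where library size alone gave 3 up and 6 down and the upper quartile 5 up and 2 down.

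Of 37 regulators of transcription elongation 5 rose and 7 fell, counts that depended on single libraries. The number up was 2 without Act D replicate 2 or 3 and with library size alone, and 3 without any 1 vehicle replicate, and the number down was 3 without vehicle replicate 3, without Act D replicate 1 or 3 and with the upper quartile, and 4 without vehicle replicate 1. P-TEFb, the kinase that releases paused RNA polymerase II, is held inactive by HEXIM1 on 7SK RNA. HEXIM1 was at 28.3, 18.8 and 17.9 CPM with vehicle and at 45.9, 47.9 and 56.5 CPM with Act D (log2 fold change 1.22, SE 0.16, adjusted p = 0.0001), and rose by 0.87 in HCT 116p53-/- cells. BRD2, a reader of acetylated histones, was at 318.3, 303.1 and 322.3 CPM and at 453.1, 461.3 and 491.5 CPM (0.57, adjusted p = 7.21e-05). CTR9 and CCNT2 rose by 0.39 and 0.34. POLR2A, the largest subunit of RNA polymerase II, was called (0.74, adjusted p = 0.03), but vehicle replicate 1 (163.9 CPM) lay above Act D replicate 1 (151.1 CPM). The elongation factor ELL fell by 0.78 and the kinases CDK12 and CDK13 by 0.60 and 0.54. Of 38 splicing factors SRSF3 fell by 0.62, with SRSF7, RBM39 and HNRNPDL (10.5%, beside 8.4% of all genes), while SRSF6 and HNRNPH3 rose. However, 2 were down without vehicle replicate 2 or 3 and without Act D replicate 1 or 3. Only 1 was up without vehicle replicate 2 or any 1 Act D replicate.

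The study followed autophagy in these cells, and its genes are given with those of the lysosome and of mTOR. Of 44 tested autophagy genes 3 (6.82%) rose and 6 (13.6%) fell, beside 3.51 and 8.4% of all genes (median log2 fold change 0.10). MAP1LC3B, which encodes LC3B, the protein that coats the autophagosome, was at 86.0, 74.3 and 73.1 CPM with vehicle and at 98.8, 106.7 and 107.9 CPM with Act D (log2 fold change 0.43, SE 0.11, adjusted p = 0.0192), and SNAP29 and ATG12 rose by 0.47 and 0.35. With library size alone and without Act D replicate 3 none of the 44 was up, and 1 was without vehicle replicate 3 or Act D replicate 1 or 2. SQSTM1, the cargo receptor p62, was at 788.2, 590.2 and 553.1 CPM and at 465.3, 463.3 and 555.6 CPM (-0.38, adjusted p = 0.0376), with groups that overlapped, and its adjusted p reached 0.189 over the alternatives. It changed by 0.24 in HCT 116p53-/- cells, and the difference passed the interaction test (adjusted p = 0.0291). AMBRA1, ATG4B, WDR45B, ATG5 and ATG16L1 fell by 0.68, 0.63, 0.56, 0.47 and 0.33. The initiation genes ATG13 (-0.07), ATG101 (-0.04) and ULK1 (0.05), the factor TFEB (-0.05) and LAMP1 (0.03) did not pass, with adjusted p between 0.749 and 0.946. ATG101 rose by 0.53 in HCT 116p53-/- cells (adjusted p = 0.00446), which differed from the libraries labelled uL3Δ (interaction adjusted p = 0.0476). Of 52 lysosomal genes LIPA, ASAH1 and LAMP2 rose by between 0.30 and 0.39 and none fell, but 1 was up without vehicle replicate 1 or 2 or Act D replicate 1 or 2, 0 with library size alone and 6 with the upper quartile. Of 55 genes of mTOR signalling 3 (5.45%) rose and 9 (16.4%) fell. The number down was 4 without vehicle replicate 2, 5 without Act D replicate 3, 5 with the upper quartile and 13 with library size alone. RPTOR, the scaffold of mTORC1, fell from 48.0, 31.4 and 35.9 CPM to 23.0, 15.3 and 20.6 CPM (-0.95, adjusted p = 0.000531), with a decrease of 2.05 in HCT 116p53-/- cells, a difference past the interaction test (adjusted p = 0.00452). SESN3 rose by 0.83, while SESN2 and DDIT4, which also restrain mTORC1, fell by 0.55 and 0.52. In cholesterol synthesis SQLE, IDI1, SC5D and SCD, which makes monounsaturated fatty acids, rose by between 0.33 and 0.39 and SREBF1 fell by 0.46, of 34 tested. None of these increases was called with library size alone, and the number up was 1 without Act D replicate 1, 2 without vehicle replicate 1 or Act D replicate 2, and 7 without vehicle replicate 2. None of the 34 was down without vehicle replicate 1 or Act D replicate 2 or 3.

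Of 42 hypoxia and glycolysis genes 7 fell, SLC2A1, the glucose transporter, by 0.78, PFKFB3 by 0.66 and VEGFA by 0.61 among them, and none rose. Of 31 apoptosis genes 6 fell, with FADD, BOK and BCL2L1 by 0.67, 0.52 and 0.49, and PMAIP1 rose, with 2 down without vehicle replicate 1 or Act D replicate 1, and 3 without vehicle replicate 2. Of 35 interferon genes IFIT5 fell (-0.68), of 27 heat shock genes HSP90AA1 rose (0.53), and of 46 matrix genes COL5A2 (0.32) and COL12A1 (1.23) passed the test as higher, with none up without Act D replicate 1 or 2. COL12A1 was at 0.54 to 1.60 CPM in these libraries beside 131.8 CPM in vehicle-treated HCT 116p53-/- cells. A set of 74 genes with far higher levels in those cells stood in the libraries labelled uL3Δ at 0.925 to 1.2% of their level there with vehicle and at 0.66 to 1.52% with Act D, and the part of this in the call was not tested. Of 27 folate genes 4 (14.8%, beside 8.4% of all genes) fell, and 2 were down without Act D replicate 1. SLC19A1 fell by 0.66 beside 2.49 in HCT 116p53-/- cells (interaction adjusted p = 2.26e-05). SHMT1 rose, a call lost whichever library was left out. In Notch signalling JAG1, NOTCH2 and ADAM17 fell and NRARP rose, of 28, shares of 10.7 and 3.57% beside 8.4 and 3.51% of all genes.

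**Figure D4:**
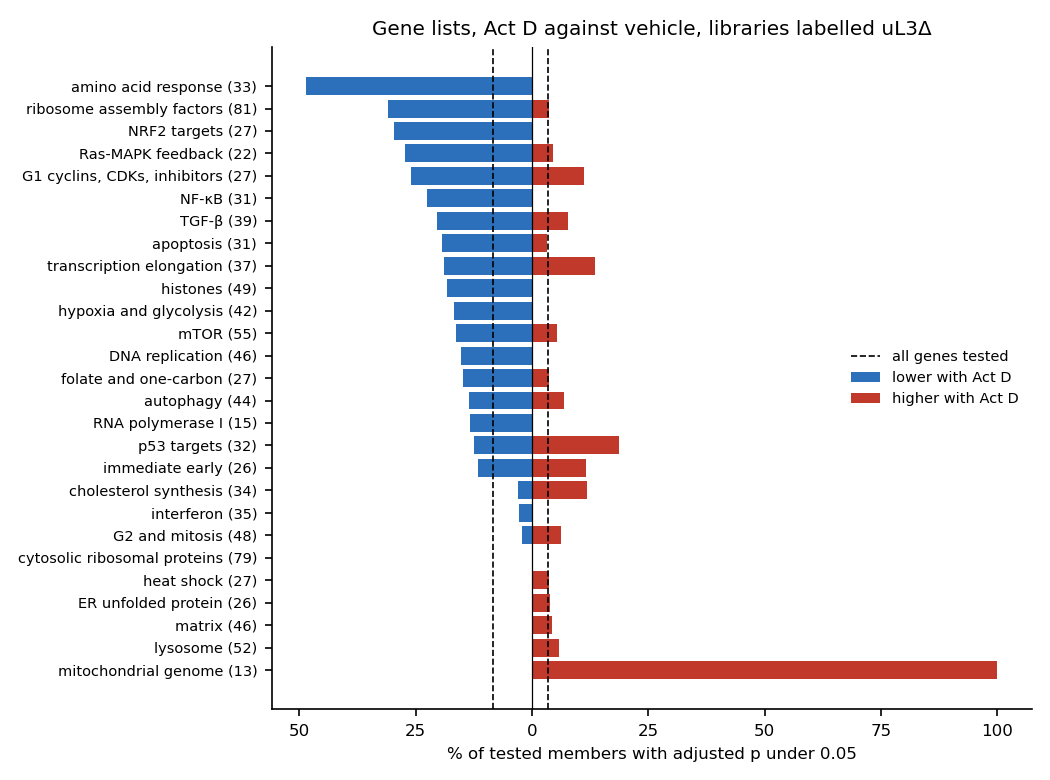
Share of the tested members of 27 gene lists (number tested in brackets) that were higher (red, right) or lower (blue, left) with Act D at adjusted p under 0.05 in the libraries labelled uL3Δ; dashed lines mark the shares of all genes tested, 3.51 and 8.4%. The amino acid response reaches 48.5% on the lower side and all 13 mitochondrial genes are on the higher side. The dashed lines are not matched for level: in 5 equal groups by mean CPM, 0.637% of genes fell in the lowest and 15.2% in the highest.

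The response also followed the size of genes. When genes were divided into 5 groups of equal number by their genomic span, from the first to the last exon, the share that fell rose from 4.29% in the shortest group (median 3.73 kb) through 4.86, 7.30 and 10.3% to 15.3% in the longest (median 160.2 kb). Genes with more counts are called more easily, and among genes of 10 CPM or more the shares ran from 6.61 to 24.9%. The share that rose was 3.10% in the shortest group and 2.40% in the longest. Median log2 fold changes were close together, at 0.05 in the shortest and -0.02 in the longest group. Groups by transcript length gave a like gradient, from 2.82 to 15.4% that fell, and from 4.37 to 20.8% at 10 CPM or more. With the fewest exons 5.50% fell, and with the most 13.2%. The part of span apart from these was not tested. The genes that fell had a median span of 63.3 kb and those that rose 26.0 kb, beside 29.6 kb for all tested. Without vehicle replicate 1 the shares that fell in the shortest and longest groups were 2.88 and 12.9%, and with offsets for GC content and transcript length 5.34 and 16.8%. Of the longest group 30.1% fell in HCT 116p53-/- cells, and of the 556 genes over 300 kb 50 (8.99%, beside 8.4% of all genes) fell in the libraries labelled uL3Δ and 198 in HCT 116p53-/- cells. For 104 of these 556 the difference between the responses passed the interaction test, where 6.53% of all genes passed. Increases followed base composition: 5.12% of genes rose in the group with the lowest transcript GC content (median 38.6%) and 1.47% in the group with the highest (median 61.9%). Promoters of the genes that fell had a median GC content of 67.3%, beside 65.7% for those that rose and 65.3% for all.

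**Figure D5:**
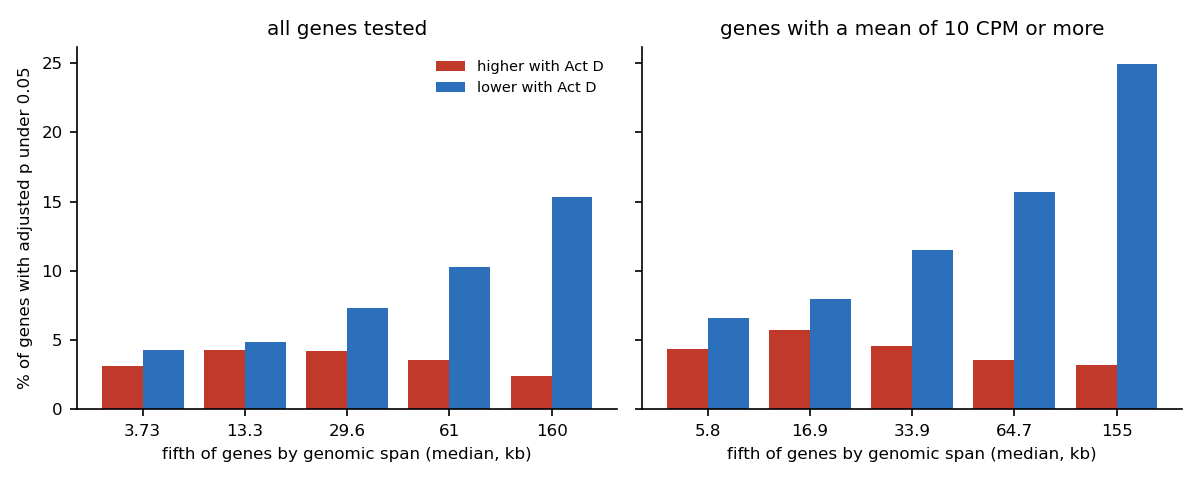
Share of genes higher (red) or lower (blue) with Act D at adjusted p under 0.05 in 5 equal groups of genes by genomic span, shortest to longest, for all genes tested and for those with a mean of 10 CPM or more, in the libraries labelled uL3Δ. The blue bars rise from 4.29 to 15.3% on the left and from 6.61 to 24.9% on the right.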

How the data were processed

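RNA sequencing libraries were prepared in the study with a TruSeq RNA kit. The study's methods state that adapters and low-quality ends were trimmed, that reads of contaminants such as ribosomal RNA were removed, and that RSEM 1.2.25 assigned the rest to Ensembl transcripts and genes (hg38). The values used here are the expected counts per gene that the authors deposited, which are RSEM's estimates and were rounded to whole numbers. For 1 vehicle-treated HCT 116p53-/- library the deposited estimates were per transcript and were summed per gene. The strand setting of the counting and the tool behind the study's differential expression are not given in the sources used here, so that reads of overlapping genes on opposite strands cannot be told apart. TPM and FPKM values in the same files were not used.

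Of 60617 gene identifiers 60261 matched GENCODE 44. Genes were filtered with filterByExpr over all 12 libraries, leaving 15692, scaled by TMM (factors 0.847 to 1.15) and tested with edgeR 4.0.16 in R 4.3.3 by a quasi-likelihood fit of the 4 groups, which share 1 estimate of the spread. Act D was compared with vehicle among the libraries labelled uL3Δ, and the difference of that response from the one in HCT 116p53-/- cells was tested as an interaction. Adjusted p-values are Benjamini-Hochberg values over all genes, with a threshold of 0.05. The fit was tested on counts simulated from its own means and spread, which cannot show how well it suits these libraries. With 3 libraries a group, p-values set a difference against the spread between libraries, estimated over all 12 and not only from those labelled uL3Δ. At the totals given counting error is largest for genes of a few CPM.

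Named genes were those the study names, the 12 largest changes in each direction at 5 CPM or more without overlap, the 8 largest at 100 CPM or more, and up to 4 members of each list in each direction with the smallest p. Other genes were chosen after their values were seen. The members and the 36 gene lists were chosen with earlier results of these data known. Alternatives were DESeq2 1.42.0, other scalings, filters, thresholds and sets of libraries, offsets for GC content and length, a replicate block, and leaving out each library. Promoter sequences are RefSeq's for GRCh38.p14, and the snRNA stretches were read from hg38. The promoter searches by gene list were added after the data were seen, and those in the histone and NRF2 lists are not described. Some items are not reported here.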

Additional observations from a re-analysis of the deposited data

Results flagged for a closer look

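The difference between the Act D response in the libraries labelled uL3Δ and that in HCT 116p53-/- cells was examined for 47 named genes. It passed the interaction test (edgeR, adjusted p under 0.05) for 15 of them, where 6.53% of all genes passed. Most of the 47 were picked for a large change in the libraries labelled uL3Δ, which is part of the difference tested. Their share therefore cannot be set against that of all genes. The difference was negative for 13 of the 15, with the log2 fold change lower in the libraries labelled uL3Δ. The differences at the loci with a small nuclear RNA gene were -2.47 on the log2 scale at ENSG00000270022, -2.25 at ENSG00000287190, -1.54 at ENSG00000287979, -1.51 at ENSG00000285646 and -1.29 at ENSG00000276216. ENSG00000255639, the read-through locus with an uncertain count, had -2.16 (adjusted p = 0.00563).

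Among named genes that fell further in the libraries labelled uL3Δ, the difference was -1.18 for SNX21 (adjusted p = 0.0266), -1.13 for FRMD6, -0.798 for TXNRD1 (adjusted p = 0.00414) and -0.662 for TRAF3 (adjusted p = 0.0365). It was -0.617 for SQSTM1, -0.567 for ATG101 and -0.554 for POLR1B, all of which had a positive log2 fold change in HCT 116p53-/- cells. ZNF425 and FES had the higher response in the libraries labelled uL3Δ, by 1.45 and 1.21.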

How the results depend on the processing

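The 551 genes up, 1318 down and 1869 in all became 227, 1858 and 2085 with library size alone, 944, 1012 and 1956 with upper-quartile scaling, 271, 1117 and 1388 with the 6 libraries labelled uL3Δ fitted alone, 831, 1615 and 2446 with offsets for GC content and length, and 87, 115 and 202 with a 2-fold change also required. The share of calls that were up was 29.5%, against 10.9% with library size alone and 48.3% with the upper quartile. DESeq2 gave 609 up and 1408 down. Leaving out 1 library gave 295 to 474 up, 923 to 1235 down and 1272 to 1709 in all, and 614 to 979 genes with a difference between the responses, where all libraries gave 1025. The lowest were without Act D replicate 2 (295 up) and without Act D replicate 1 (923 down, 614 differences). Without mitochondrial and very abundant loci, an alternative chosen after seeing the data, 481 genes were up and 1348 down. The causes were not tested.

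Libraries with the same number in their titles did not deviate together (r = -0.045, -0.0326 and -0.0647), so the numbers were not taken to pair them, and a fit with the replicate block gave 489 up, 1265 down and 1754 in all. Over all alternatives the named genes kept direction and side of the threshold in 2258 results, lost the threshold in 284 and changed sign in 16, all for genes past no threshold. RPL3 was at 0.0409 with the upper quartile, and from -0.0851 to 0.0311 with 1 library left out, positive without vehicle replicate 2 or without Act D replicate 2 (0.0101). TFEB was at 0.0171 with the upper quartile and from -0.39 to 0.158 with 1 library left out, positive without vehicle replicates 2 (0.045) or 3 (0.0672) or Act D replicate 3. ATG101 was at 0.0234 with the upper quartile and from -0.141 to 0.0242, the latter without vehicle replicate 2. ATG13 ranged from -0.204 to 0.0443, the latter without vehicle replicate 1. ULK1 was at -0.0536 with library size alone and from -0.02997 (without vehicle replicate 2) to 0.161 with 1 library left out. LAMP1 was at -0.0751 with library size alone, -0.0175 with no filter and from -0.0602 (without vehicle replicate 1) to 0.0891 with 1 library left out (-0.00287 without Act D replicate 3).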
